A study of Mus musculus with 12 samples.

Results

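The genes described here are the 5 that form the core of the Fas death receptor pathway: the ligand Fasl, its receptor Fas, the adaptor Fadd, the initiator protease Casp8 and the inhibitor Cflar, which encodes c-FLIP. They were taken as every probe set that the array annotation gives to 1 of these 5 symbols alone, without selecting probe sets by their values, which gave 11 probe sets of the 45037 tested and 5 genes of the 18193 named. Fas and Casp8 had 1 probe set each, Fasl and Fadd 2 each, and Cflar 5. Total RNA from sorted CD4 T cells was hybridised to Affymetrix Mouse Genome 430 2.0 arrays, 12 in all and 3 for each of 4 populations. All cells came from spleens of female MRL/Faslpr mice and were gated as TCRb+ CD4+ B220-. The CD62Llo PSGL1lo, CD62Llo PSGL1hi and CD62Lhi PSGL1hi populations were also CD44+ and came from mice of 16 to 24 weeks, while the naive population, CD62Lhi CD44lo, was sorted from mice of 6 to 8 weeks, so that CD44+ state and age cannot be told apart in any comparison with naive cells. The arrays are titled as technical replicates whereas the design text gives 3 independent sorts, so p-values measure the spread between these arrays, which may be technical. The CD62Llo PSGL1hi arrays carry a description that gives a different gate, so their population was taken from their titles. All 12 arrays carry the lpr allele, and mice with intact Fas were not analysed here, so no comparison measures the effect of the mutation.

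Fas is a death domain receptor of the TNF receptor superfamily. When Fas ligand on a neighbouring lymphocyte clusters it, the adaptor FADD joins its death domain and recruits procaspase 8, which cleaves itself and then starts the executioner caspases, either directly or by cutting Bid. c-FLIP resembles caspase 8, takes its place in the complex and limits its activation. In T cells Fas ligand is induced by antigen receptor signals, and killing through Fas removes repeatedly stimulated lymphocytes. The lpr allele is an insertion of a transposable element in an intron of Fas that disturbs splicing of the transcript, and mice that carry it on the MRL background accumulate lymphocytes and develop lupus-like disease. In mice that lack Fas function, T cells are known to carry more Fas ligand. The sources used here do not give where the Fas probe set lies relative to the insertion, so its value checks nothing about the mutation.

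Promoter windows are shown for the ligand, the gene of the 5 that differed most between populations, and for the receptor it binds. RefSeq windows of assembly GRCm38.p6, each of 300 bases from 250 before the gene's start to 50 after, were found for all 5 genes. The ligand's window is chr1:161788446-161788745 on the minus strand, and the receptor's is chr19:34290409-34290708 on the plus strand. Both are written 5′ to 3′ on the gene's strand, with capitals marking the matches to the motifs given after them.
Fasl: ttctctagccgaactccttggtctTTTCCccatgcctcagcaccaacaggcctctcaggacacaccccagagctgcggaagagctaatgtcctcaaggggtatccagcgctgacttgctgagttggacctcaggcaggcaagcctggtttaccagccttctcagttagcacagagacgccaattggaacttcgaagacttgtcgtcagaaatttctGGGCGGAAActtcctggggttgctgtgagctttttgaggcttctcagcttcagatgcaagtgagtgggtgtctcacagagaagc
Fas: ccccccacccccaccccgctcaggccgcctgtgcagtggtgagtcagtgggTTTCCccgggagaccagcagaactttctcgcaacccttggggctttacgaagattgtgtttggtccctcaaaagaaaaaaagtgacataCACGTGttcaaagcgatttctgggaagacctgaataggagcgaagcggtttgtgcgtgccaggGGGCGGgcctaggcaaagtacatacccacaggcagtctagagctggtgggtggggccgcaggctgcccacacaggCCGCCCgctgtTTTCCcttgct
A set of 4 short motifs were searched on both strands: GGAAA, the core that NFAT factors bind, GGGCGG, the box that Sp1 binds, GTGGGCG, an EGR core, and the E-box CACGTG that MYC binds. The Fasl window held GGAAA at -226 on the opposite strand and at -30 on the gene's strand, and GGGCGG at -34, which overlaps the second GGAAA. The Fas window held GGAAA at -199 and 40 on the opposite strand, GGGCGG at -47 on the gene's strand and at 29 on the opposite strand, and CACGTG at -110. Such matches are common: GGAAA occurs in 61.3% of 32851 mouse windows of this length, GGGCGG in 35.7%, GTGGGCG in 7.97% and CACGTG in 7.15%. No window of the 5 genes held GTGGGCG, which says only that these letters are not in these windows. Fasl, Cflar and Casp8 lie on chromosome 1, where Cflar and Casp8 are neighbouring genes, Fadd lies on chromosome 7 and Fas on chromosome 19.

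The deposited value of a probe set is a ratio to that probe set's own median over the 12 arrays, so a ratio of 1 is the middle of the series and no level can be set against another gene's. Array medians lay between 0.967 and 1.022. Differences were tested on the log2 ratio with limma, fitted to all 45037 probe sets, and a difference was called where its Benjamini-Hochberg adjusted p was under 0.05. This main fit had no block for replicate number. The CD44 and PSGL1 gates held at the RNA level: Cd44 had ratios of 1.08 to 1.40 in CD62Llo PSGL1lo cells, 1.03 to 1.16 in CD62Llo PSGL1hi cells and 0.772 to 0.972 in CD62Lhi PSGL1hi cells, against 0.0752 to 0.0842 in naive cells. Selplg, which encodes PSGL1, had ratios of 0.118 to 0.153 in CD62Llo PSGL1lo cells and of 0.906 or more on the other arrays. Some markers of other cells differed between populations. The 7 genes of macrophages, monocytes and neutrophils averaged 0.701 to 1.37 on the CD44+ arrays against 4.37 to 4.65 on the naive arrays, through S100a8 and S100a9, which had ratios of 11.96 to 14.67 in naive cells. The 6 genes of NK and CD8 T cells averaged 0.833 to 1.10 on the CD44+ arrays against 1.12 to 1.27 on the naive arrays. Of 5 B cell genes, 2, Cd79b and Ms4a1, fell in CD62Llo PSGL1lo cells relative to CD62Llo PSGL1hi cells, and 3 were not called. Of those 3, Cd22 had a higher mean ratio in CD62Llo PSGL1lo cells, 1.75 against 1.19. Cd79a and Blk were near level, at 0.987 against 0.972 and 0.931 against 0.913. Over all named genes 5.64% were called lower in this comparison. These ratios cannot show whether a marker is at 0.

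Among the 11 probe sets, Fasl separated the CD44+ PSGL1hi populations from the others, Casp8 was called only against naive cells, Cflar both against naive cells and between CD44+ populations with its probe sets differing in which, Fas in 1 comparison, and Fadd in none. In CD62Llo PSGL1lo cells relative to CD62Llo PSGL1hi cells, 4 of 11 probe sets fell and 0 rose, where 8.38% of all probe sets were called, 3.41% higher and 4.97% lower. With replicate number as a block within the 9 CD44+ arrays 6 of 11 were called in that comparison, Fas higher and Cflar 1424996_at lower besides those 4. That blocked fit called 4788 of all 45037 probe sets. Between CD62Llo PSGL1hi and CD62Lhi PSGL1hi cells limma called 0 of 11, where 1.23% of all probe sets were called, 0.395% higher and 0.839% lower. Without a block 5 of 11, all of them probe sets of Fasl or Cflar, had an unadjusted p under 0.05. That share was not computed over all probe sets, so the count describes these probe sets only. With replicate number as a block 2 of 11 were called, where 1016 of all 45037 probe sets were called with 12 arrays and 1089 with 9. Against CD62Lhi PSGL1hi cells, 1 of 11 rose and 2 fell in CD62Llo PSGL1lo cells, against 11.6% called over all, 5.37% higher and 6.27% lower. Relative to naive cells, 2 rose and 1 fell in CD62Llo PSGL1lo cells, where 20.1% of all probe sets were called, 9.53% higher and 10.6% lower. The CD62Llo PSGL1hi cells had 3 higher and 1 lower, where 17.3% were called, 9.1% higher and 8.16% lower. The CD62Lhi PSGL1hi cells also had 3 higher and 1 lower, where 17.3% were called, 8.6% higher and 8.66% lower. The F test among the 4 populations called 6 of 11, against 23.7% of all probe sets. With 11 probe sets of 5 genes, of which several measure the same transcript, these shares describe the genes and are not a test of the pathway. In each of these bulk samples, fewer cells with an RNA and less RNA per cell cannot be told apart.

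**Figure D1:**
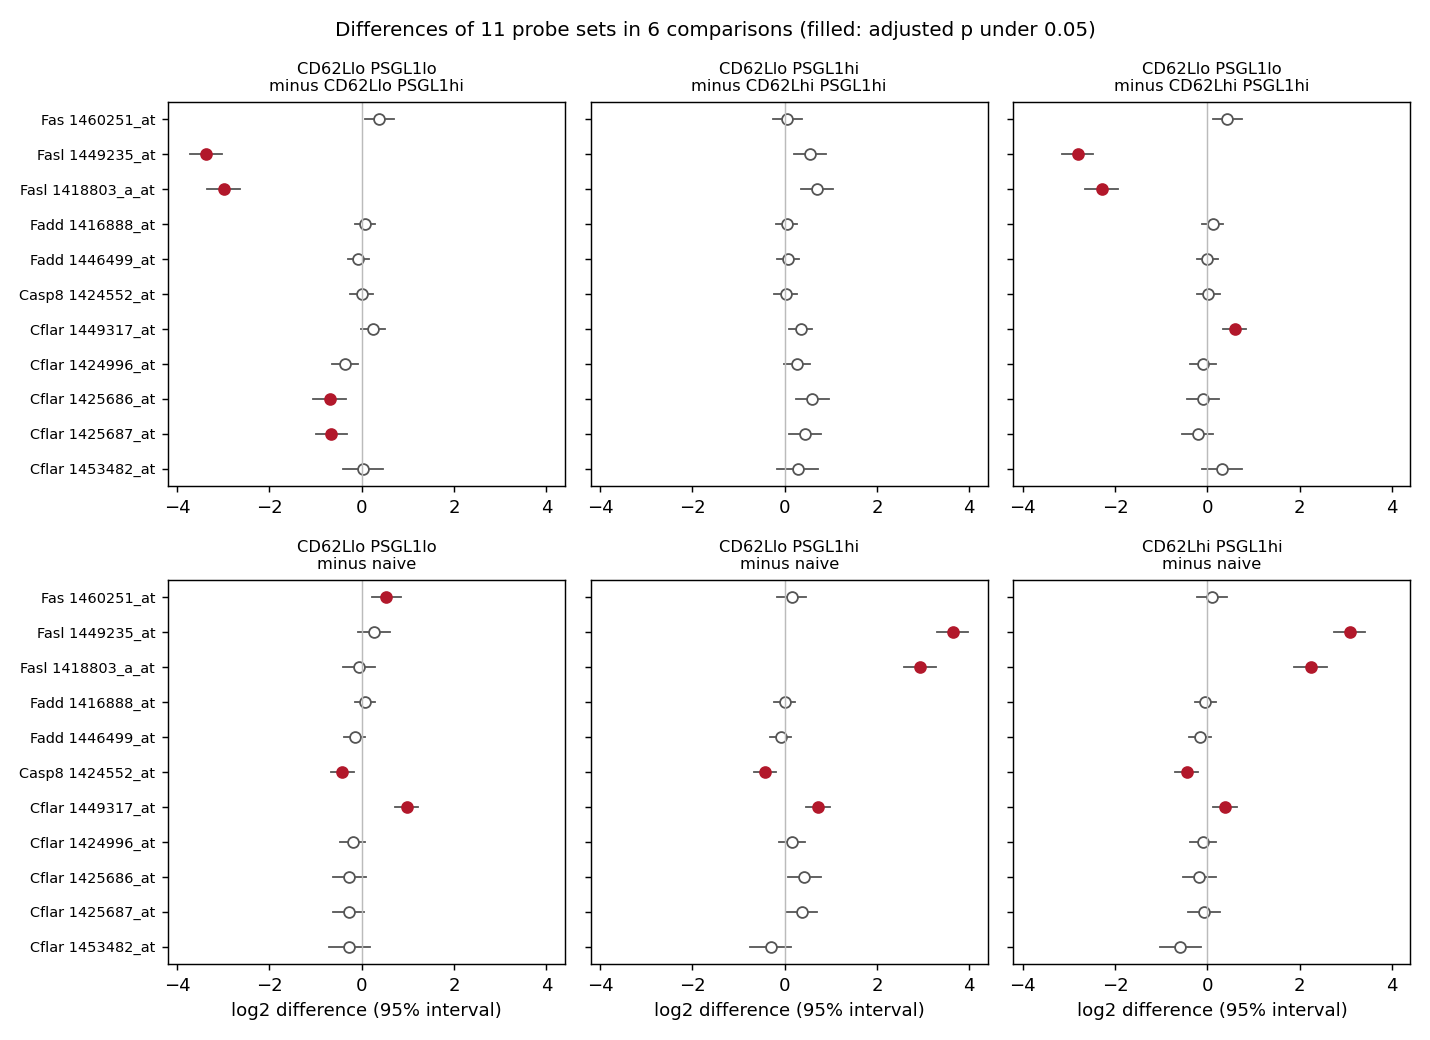
Log2 differences of the 11 probe sets (rows) in 6 comparisons (panels), with 95% intervals from limma over 12 arrays; filled points passed an adjusted p under 0.05. The Fasl points lie far left of 0 where CD62Llo PSGL1lo cells are set against either PSGL1hi population and far right of 0 where PSGL1hi cells are set against naive cells, while both Fadd probe sets stay near 0 in every panel.

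Fasl encodes Fas ligand, the membrane protein of the TNF family that triggers Fas. Both of its probe sets put CD62Llo PSGL1lo cells beside naive cells, well below the PSGL1hi CD44+ populations. On probe set 1449235_at the ratios were 0.320, 0.254 and 0.342 in CD62Llo PSGL1lo cells, 3.44, 2.80 and 3.20 in CD62Llo PSGL1hi cells, 2.50, 2.33 and 1.66 in CD62Lhi PSGL1hi cells, and 0.288, 0.241 and 0.230 in naive cells. The lowest CD44+ PSGL1hi array thus lay well above the highest of the other 6 arrays, and CD62Llo PSGL1lo and naive values overlapped. The second probe set, 1418803_a_at, had ratios of 0.353, 0.314 and 0.433 in CD62Llo PSGL1lo cells, 3.32, 2.40 and 3.04 in CD62Llo PSGL1hi cells, 1.81, 1.98 and 1.57 in CD62Lhi PSGL1hi cells, and 0.420, 0.422 and 0.304 in naive cells. It ordered the arrays nearly as the first did, with a correlation of 0.991 over the 12 arrays.

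Fasl fell in CD62Llo PSGL1lo cells relative to CD62Llo PSGL1hi cells by 3.37 ± 0.16 on the log2 scale (SE, n = 3 each, adjusted p = 1.12e-08), which is 10.3-fold lower on 1449235_at. Only 39 of the 45037 probe sets had a more negative difference in that comparison. The second probe set gave a 7.96-fold lower level (adjusted p = 4.73e-08). Relative to CD62Lhi PSGL1hi cells the level in CD62Llo PSGL1lo cells was 7.03-fold lower (adjusted p = 4.85e-08) and 4.89-fold lower (adjusted p = 3.86e-07) on the same probe sets. Set against naive cells, Fasl was 12.5-fold higher in CD62Llo PSGL1hi cells (adjusted p = 1.33e-09) and 8.45-fold higher in CD62Lhi PSGL1hi cells (adjusted p = 8.31e-09) on 1449235_at, and 7.66-fold and 4.71-fold higher on 1418803_a_at (adjusted p = 1.37e-08 and 2.81e-07). These 8 calls passed in every alternative run.

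The differences between neighbours in this order were smaller. CD62Llo PSGL1hi cells had a mean Fasl level above CD62Lhi PSGL1hi cells on both probe sets, but neither difference was called. It was 0.56 ± 0.16 log2 units on 1449235_at (SE, n = 3 each, adjusted p = 0.159) and 0.70 ± 0.16 on 1418803_a_at (adjusted p = 0.0609). With replicate number as a block within the 9 CD44+ arrays the second reached an adjusted p of 0.0237, and after quantile normalization the differences were 1.00 and 1.19 (adjusted p = 0.00958 and 0.000775). CD62Llo PSGL1lo cells differed from naive cells by 0.27 log2 units on 1449235_at, with a 95% interval of -0.08 to 0.61, and by -0.06 on 1418803_a_at, with an interval of -0.41 to 0.30 (adjusted p = 0.305 and 0.874). This depends on the scaling: after quantile normalization the differences were -0.55 and -0.60, the second with an adjusted p of 0.0124, and with array weights the first was 0.38 (adjusted p = 0.049).

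Some markers of other cells ran partly parallel to Fasl. Cd68, a lysosomal protein best known from macrophages, had ratios of 0.426 to 0.555 in CD62Llo PSGL1lo cells, 1.45 to 1.82 in CD62Llo PSGL1hi cells, 2.13 to 3.25 in CD62Lhi PSGL1hi cells and 0.183 to 0.237 in naive cells. Over its list of 7 genes, however, 0 rose and 1 fell in CD62Llo PSGL1lo cells relative to CD62Llo PSGL1hi cells, and that 1 was Cd68. Of the 6 NK and CD8 T cell genes, other cells that carry Fas ligand, 0 rose and 2 fell in CD62Llo PSGL1hi cells relative to naive cells (Cd8a and Cd8b1), and 1, Klre1, fell in CD62Llo PSGL1lo cells relative to CD62Llo PSGL1hi cells. Over all named genes, 9.91% were called higher and 9.15% lower in CD62Llo PSGL1hi cells relative to naive cells. In CD62Llo PSGL1lo relative to CD62Llo PSGL1hi cells these shares were 3.97% and 5.64%. The part of these cells in the Fasl differences was not tested.

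**Figure D2:**
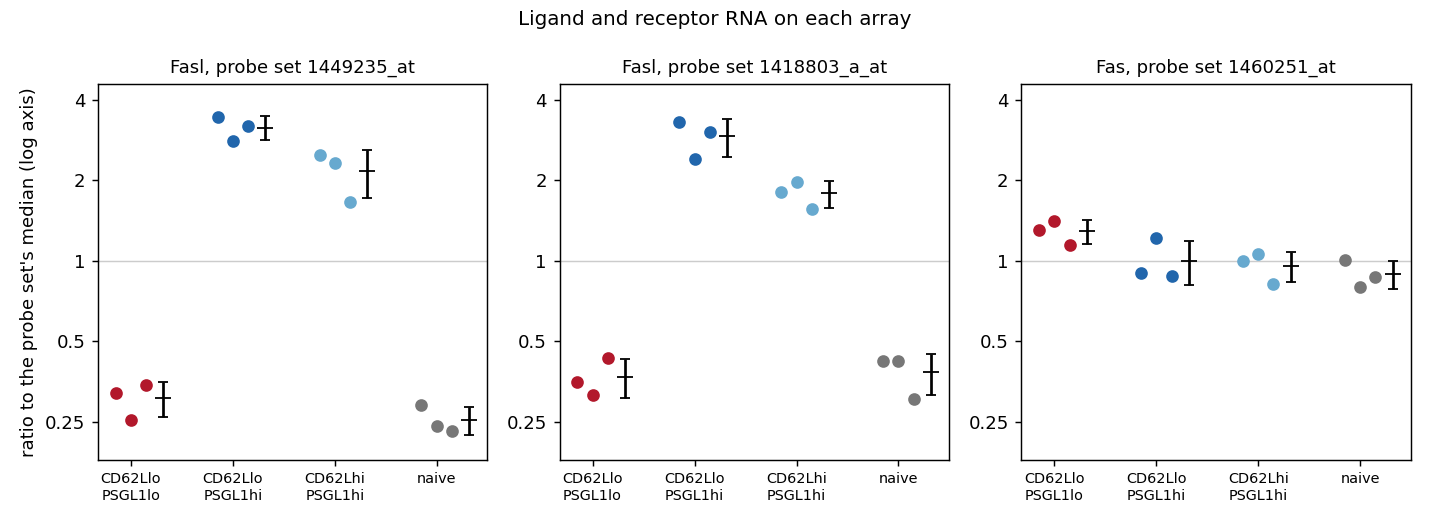
Ratio to the probe set's median (log axis) for both Fasl probe sets and for Fas; each point is 1 array of the population on the horizontal axis, and the cross and bar are the mean and SD of 3 arrays. In the Fasl panels the 6 PSGL1hi CD44+ arrays lie between 1.57 and 3.44 and the other 6 between 0.230 and 0.433, while the Fas values of all populations lie between 0.795 and 1.41.

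Fas itself varied far less than its ligand. Probe set 1460251_at had ratios of 1.31, 1.41 and 1.15 in CD62Llo PSGL1lo cells, 0.903, 1.22 and 0.875 in CD62Llo PSGL1hi cells, 0.995, 1.06 and 0.816 in CD62Lhi PSGL1hi cells, and 1.00, 0.795 and 0.872 in naive cells. The CD62Llo PSGL1lo arrays had the highest mean, with overlap with 1 CD62Llo PSGL1hi array. Fas RNA rose in CD62Llo PSGL1lo cells relative to naive cells by 0.53 ± 0.15 log2 units (SE, n = 3 each, adjusted p = 0.018), with a 95% interval of 0.22 to 0.85. This call was lost after quantile normalization (adjusted p = 0.0505) and without CD62Llo PSGL1lo replicate 2, naive replicate 2 or naive replicate 3 (adjusted p = 0.0581, 0.0887 and 0.0587), and the F test among the 4 populations did not call Fas (adjusted p = 0.0585).

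Among CD44+ cells the Fas difference of CD62Llo PSGL1lo cells was 0.38 ± 0.15 against CD62Llo PSGL1hi cells (adjusted p = 0.165) and 0.43 ± 0.15 against CD62Lhi PSGL1hi cells (adjusted p = 0.0775). Both passed with replicate number as a block within the 9 CD44+ arrays (adjusted p = 0.0368 and 0.0131). Both also passed without CD62Llo PSGL1hi replicate 2, the array with the ratio of 1.22 (adjusted p = 0.0416 and 0.0444). That array is not in the second comparison, whose difference stayed at 0.43. Of 20 alternatives, 2 passed for the first comparison, with adjusted p-values up to 0.441, and 3 for the second, with values up to 0.256. The remaining populations lay within 0.16 log2 units of each other, with adjusted p-values of 0.533, 0.736 and 0.956. The receptor thus had its highest mean ratio in CD62Llo PSGL1lo cells, where the ligand as deposited lay near its naive level.

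Fadd encodes the adaptor through which Fas and related receptors recruit caspase 8. All 12 arrays lay between 0.882 and 1.18 on probe set 1416888_at and between 0.816 and 1.10 on 1446499_at. No comparison called either probe set, and every difference lay between -0.16 and 0.11 log2 units. The 95% intervals in CD62Llo PSGL1lo cells relative to CD62Llo PSGL1hi cells ran from -0.15 to 0.29 on 1416888_at and from -0.30 to 0.16 on 1446499_at. The 2 probe sets had a correlation of -0.22 over the 12 arrays.

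Casp8 encodes the initiator caspase of the pathway, which also restrains necroptosis. It had ratios of 1.05, 0.813 and 0.999 in CD62Llo PSGL1lo cells, 1.00, 0.957 and 0.893 in CD62Llo PSGL1hi cells, 0.827, 1.01 and 0.974 in CD62Lhi PSGL1hi cells, and 1.34, 1.28 and 1.20 in naive cells. Each naive array lay above all 9 CD44+ arrays. Relative to naive cells Casp8 fell by 0.42 ± 0.11 log2 units in CD62Llo PSGL1lo cells (adjusted p = 0.0167), by 0.42 in CD62Llo PSGL1hi cells (adjusted p = 0.0201) and by 0.45 in CD62Lhi PSGL1hi cells (adjusted p = 0.0138, SE as above, n = 3 each). Among the CD44+ populations the largest difference was 0.03, and the interval between CD62Llo PSGL1lo and CD62Llo PSGL1hi cells was -0.25 to 0.25. The calls were modest: leaving out 1 array of those compared ended the CD62Llo PSGL1lo call in 3 cases, with the highest adjusted p of 0.0684 without naive replicate 1, the CD62Llo PSGL1hi call in 4 cases, with the highest of 0.0784 without CD62Llo PSGL1hi replicate 3, and the CD62Lhi PSGL1hi call in 2 cases, with the highest of 0.0697 without CD62Lhi PSGL1hi replicate 1. Quantile normalization ended the CD62Llo PSGL1lo call as well (adjusted p = 0.0542). S100a8 and S100a9 were also highest in naive cells, while Cd68 of the same list of 7 genes was lowest there. Relative to naive cells, 1 of these 7 rose, 3 fell and 3 were not called in each CD44+ population. The part of other cells in the Casp8 differences was not tested.

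Cflar encodes c-FLIP, which has long and short splice forms, and its 5 probe sets did not vary alike. Probe set 1449317_at, the 1 used to stand for the gene where a single value is needed, had ratios of 1.31, 1.48 and 1.38 in CD62Llo PSGL1lo cells, 1.11, 1.40 and 1.04 in CD62Llo PSGL1hi cells, 0.884, 0.958 and 0.922 in CD62Lhi PSGL1hi cells, and 0.791, 0.669 and 0.671 in naive cells. The means stepped down in that order, with overlap only between CD62Llo PSGL1lo and CD62Llo PSGL1hi arrays. Relative to naive cells the level was 1.96-fold higher in CD62Llo PSGL1lo cells (adjusted p = 2.59e-05) and 1.66-fold higher in CD62Llo PSGL1hi cells (adjusted p = 0.000468). In CD62Lhi PSGL1hi cells it was 1.30-fold higher (adjusted p = 0.0392), a call that was lost after quantile normalization (adjusted p = 0.166) and without any 1 of 6 arrays, at the most to an adjusted p of 0.144 without naive replicate 2.

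Within the CD44+ cells the same probe set was 1.51-fold higher in CD62Llo PSGL1lo than in CD62Lhi PSGL1hi cells (adjusted p = 0.00345). It differed by 0.24 log2 units between CD62Llo PSGL1lo and CD62Llo PSGL1hi cells (adjusted p = 0.307) and by 0.35 between CD62Llo PSGL1hi and CD62Lhi PSGL1hi cells (adjusted p = 0.275), so these neighbours were not called apart.

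Another pair of Cflar probe sets peaked in a different population. On 1425686_at the ratios were 0.979, 0.940 and 0.692 in CD62Llo PSGL1lo cells, 1.69, 1.33 and 1.19 in CD62Llo PSGL1hi cells, 0.832, 1.13 and 0.822 in CD62Lhi PSGL1hi cells, and 0.999, 1.11 and 1.00 in naive cells. All 3 CD62Llo PSGL1hi arrays lay above the other 9. In CD62Llo PSGL1lo cells it was 1.62-fold lower than in CD62Llo PSGL1hi cells (adjusted p = 0.0163), and 1425687_at, which the annotation ties to the same source sequence and which had a correlation of 0.958 with it, was 1.57-fold lower (adjusted p = 0.0172). Fitted on these populations alone, neither passed (adjusted p = 0.0501 and 0.0584). Without CD62Llo PSGL1hi replicate 1 neither passed (adjusted p = 0.0918 and 0.0889), nor without CD62Llo PSGL1lo replicate 3 (adjusted p = 0.0836 and 0.0764), and without CD62Llo PSGL1hi replicate 2 the second did not (adjusted p = 0.052). Between CD62Llo PSGL1hi and CD62Lhi PSGL1hi cells 1425686_at differed by 0.60 ± 0.17 log2 units (SE, n = 3 each, adjusted p = 0.135), which passed with the replicate block within the CD44+ arrays (adjusted p = 0.0387).

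The remaining Cflar probe sets gave no call in the fit to all 12 arrays without a block. Probe set 1424996_at correlated with that pair at 0.822 and 0.864 over the 12 arrays. It lay 0.36 log2 units lower in CD62Llo PSGL1lo cells than in the CD62Llo PSGL1hi population (adjusted p = 0.122, and 0.0391 with the replicate block in the 9 CD44+ arrays). On 1453482_at, where single arrays of CD62Llo PSGL1lo and CD62Llo PSGL1hi cells stood at 1.34 and 1.56, the lowest population was CD62Lhi PSGL1hi, at -0.59 ± 0.21 relative to naive cells (adjusted p = 0.0668). At that same value it passed with the replicate block in 12 arrays (adjusted p = 0.00728), in a fit on these populations alone (0.0087), and without CD62Llo PSGL1hi replicate 2 (0.013) or CD62Llo PSGL1lo replicate 2 (0.0453), neither of which is in the comparison. Deviations of same-numbered arrays of the 2 populations compared correlated between -0.06 and 0.15, which gives little ground for that block. Neither probe set, nor the pair, correlated with 1449317_at, with values between -0.12 and -0.01. The log2 ratio of 1449317_at minus that of 1425686_at, a pair picked after their values were seen, averaged 0.69 in CD62Llo PSGL1lo cells, -0.24 in CD62Llo PSGL1hi cells, 0.00 in CD62Lhi PSGL1hi cells and -0.55 in naive cells. The sources used here do not say which splice form each probe set measures.

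**Figure D3:**
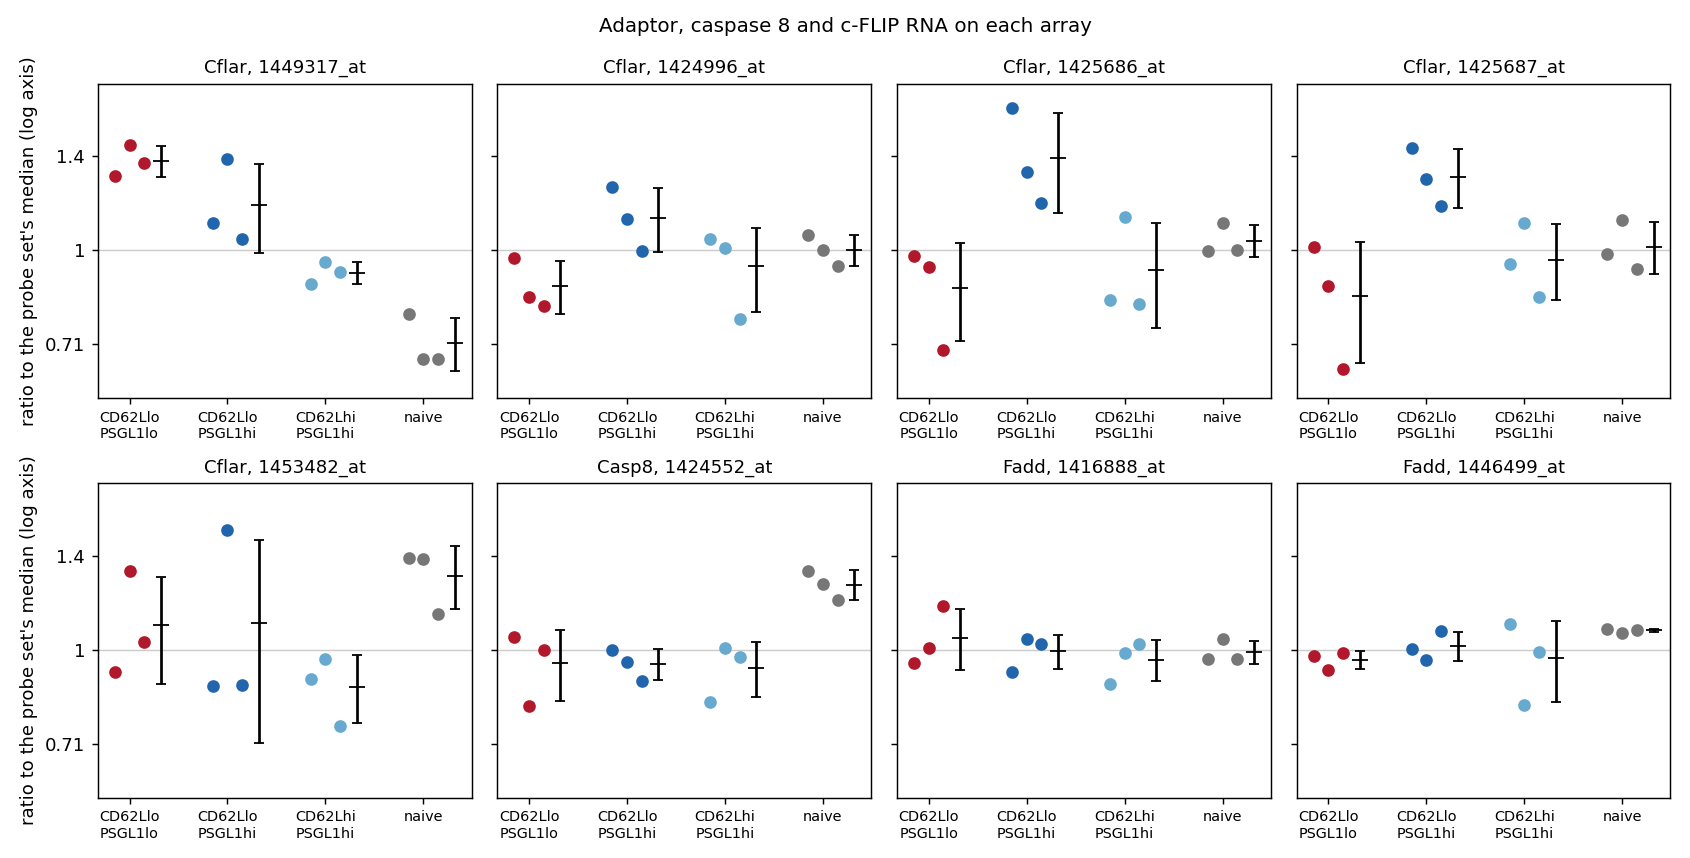
Ratio to the probe set's median (log axis) for the 5 Cflar probe sets, Casp8 and the 2 Fadd probe sets; each point is 1 array, and the cross and bar are the mean and SD of 3 arrays. Cflar 1449317_at steps down from left to right, Cflar 1425686_at and 1425687_at are highest in CD62Llo PSGL1hi cells, Casp8 is highest in naive cells, and the Fadd panels show no separation.

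Genes around these 5 were read from 5 lists, 61 genes in all, each by 1 probe set. Some listed genes were not analysed here. In CD62Llo PSGL1lo cells relative to CD62Llo PSGL1hi cells 2 of the 61 rose and 10 fell, where 9.61% of all named genes were called, 3.97% higher and 5.64% lower. Between CD62Llo PSGL1hi and CD62Lhi PSGL1hi cells 1 rose and 0 fell, against 1.6% called, 0.495% higher and 1.1% lower. Against CD62Lhi PSGL1hi cells 5 rose and 10 fell in CD62Llo PSGL1lo cells, against 13.2%, 5.86% higher and 7.37% lower. Relative to naive cells 14 rose and 11 fell in CD62Llo PSGL1lo cells, where 21.9% of all named genes were called, 10.4% higher and 11.5% lower. In the CD62Llo PSGL1hi population 19 rose and 7 fell, where 19.1% were called, 9.91% higher and 9.15% lower. In the CD62Lhi PSGL1hi population 17 rose and 6 fell, where 19.2% were called, 9.78% higher and 9.43% lower. The median of the 61 differences stayed between -0.06 and 0.07 log2 units in all 6 comparisons.

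Of 12 other death receptors and ligands, 3 fell and 0 rose in CD62Llo PSGL1lo cells relative to CD62Llo PSGL1hi cells, and 3 rose and 2 fell in CD62Llo PSGL1hi cells relative to naive cells. Tnfsf10, which encodes the death ligand TRAIL, had ratios of 0.593 to 0.945 in CD62Llo PSGL1lo cells, 1.35 to 1.50 in CD62Llo PSGL1hi cells, 1.05 to 1.46 in CD62Lhi PSGL1hi cells and 0.486 to 0.579 in naive cells. Like Fasl it fell in CD62Llo PSGL1lo relative to CD62Llo PSGL1hi cells, by 0.99 log2 units (adjusted p = 0.00104), and rose in CD62Llo PSGL1hi relative to naive cells, by 1.41 (adjusted p = 2.06e-05). Tnfrsf1b, the second TNF receptor, which has no death domain, fell by 1.83 and rose by 2.60 in these comparisons (adjusted p = 2.30e-05 and 2.68e-07). Tnfrsf1a, the TNF receptor that does carry a death domain, was lowest in CD62Llo PSGL1lo cells, at -0.55 relative to CD62Llo PSGL1hi cells and -1.03 relative to naive cells (adjusted p = 0.0014 and 1.46e-06). Tnf was the 1 gene of the 61 called between CD62Llo PSGL1hi and CD62Lhi PSGL1hi cells, higher by 0.56 (adjusted p = 0.00474).

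Of 21 adaptors and modulators, 2 rose and 3 fell in CD62Llo PSGL1lo cells relative to CD62Llo PSGL1hi cells, and 5 rose and 2 fell in CD62Llo PSGL1hi cells relative to naive cells. Fcmr, an IgM receptor once described as an inhibitor of Fas-driven death, had ratios of 2.46 to 3.67 in CD62Llo PSGL1lo cells and 0.687 to 0.934 in CD62Llo PSGL1hi cells, a difference of 1.82 (adjusted p = 4.28e-06). Tnfaip8, a death effector domain-like regulator of cell death, rose by 0.98 in the same comparison and by 2.68 in CD62Llo PSGL1lo cells relative to naive cells (adjusted p = 0.00208 and 4.30e-08). Pea15a, a death effector domain protein that binds FADD and caspase 8, ran the other way, with ratios of 0.528 to 0.529 in CD62Llo PSGL1lo cells against 0.933 to 1.04 in CD62Llo PSGL1hi cells (-0.91, adjusted p = 9.22e-06). Traf1, an adaptor of TNF receptors, fell by 0.63 in that comparison and rose by 1.63 in CD62Llo PSGL1hi relative to naive cells (adjusted p = 0.00749 and 7.72e-07).

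Of 12 genes that act below caspase 8, 0 rose and 1 fell in CD62Llo PSGL1lo cells relative to CD62Llo PSGL1hi cells, and 4 rose and 1 fell in CD62Llo PSGL1hi cells relative to naive cells. The 1 that fell was Apaf1, the scaffold of the apoptosome, by 0.92 (adjusted p = 0.000126), and it was 1.07 higher in CD62Llo PSGL1hi than in naive cells (adjusted p = 1.46e-05). Bid, the substrate through which caspase 8 reaches mitochondria, rose relative to naive cells by 1.03 in CD62Llo PSGL1lo, 0.94 in CD62Llo PSGL1hi and 1.02 in CD62Lhi PSGL1hi cells (adjusted p = 1.97e-05, 6.73e-05 and 3.06e-05). Htra2, a mitochondrial protease, also rose in all 3 CD44+ populations, and Dffb, the nuclease that cuts DNA in apoptosis, fell in all 3, by amounts between 0.42 and 0.60. Of the 3 genes of necroptosis, the kinase gene Ripk3 had its lowest ratios in CD62Llo PSGL1lo cells, 0.528 to 0.645 against 0.946 to 1.01 in CD62Llo PSGL1hi cells (-0.72, adjusted p = 0.000411). The pore-forming Mlkl rose in CD62Llo PSGL1hi relative to naive cells by 0.88 and the sensor Zbp1 fell by 0.70 (adjusted p = 0.00275 and 0.000956).

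Of 13 genes that control Fasl transcription or shed its protein, 0 rose and 2 fell in CD62Llo PSGL1lo cells relative to CD62Llo PSGL1hi cells, and 6 rose and 1 fell in CD62Llo PSGL1hi cells relative to naive cells. Nfatc1, which encodes an NFAT factor, had ratios of 1.27 to 1.39 in CD62Llo PSGL1lo cells, 1.03 to 1.12 in CD62Llo PSGL1hi cells, 0.762 to 0.965 in CD62Lhi PSGL1hi cells and 0.203 to 0.241 in naive cells. It rose in CD62Llo PSGL1lo cells relative to naive cells by 2.57 (adjusted p = 6.31e-10). Egr2, known to induce Fasl, rose relative to naive cells by 1.94 in CD62Llo PSGL1lo, 1.76 in CD62Llo PSGL1hi and 1.69 in CD62Lhi PSGL1hi cells (adjusted p = 1.84e-07, 7.16e-07 and 1.23e-06). Egr1 rose in all 3 as well, by 0.74, 0.73 and 0.66, and Myc fell in all 3, by 1.63, 1.28 and 1.06. The 2 genes that fell in CD62Llo PSGL1lo relative to CD62Llo PSGL1hi cells were the interferon regulatory factors Irf2 and Irf1, by 0.57 and 0.47 (adjusted p = 0.0202 and 0.0312). The part of any of these genes in the Fasl differences was not tested.

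**Figure D4:**
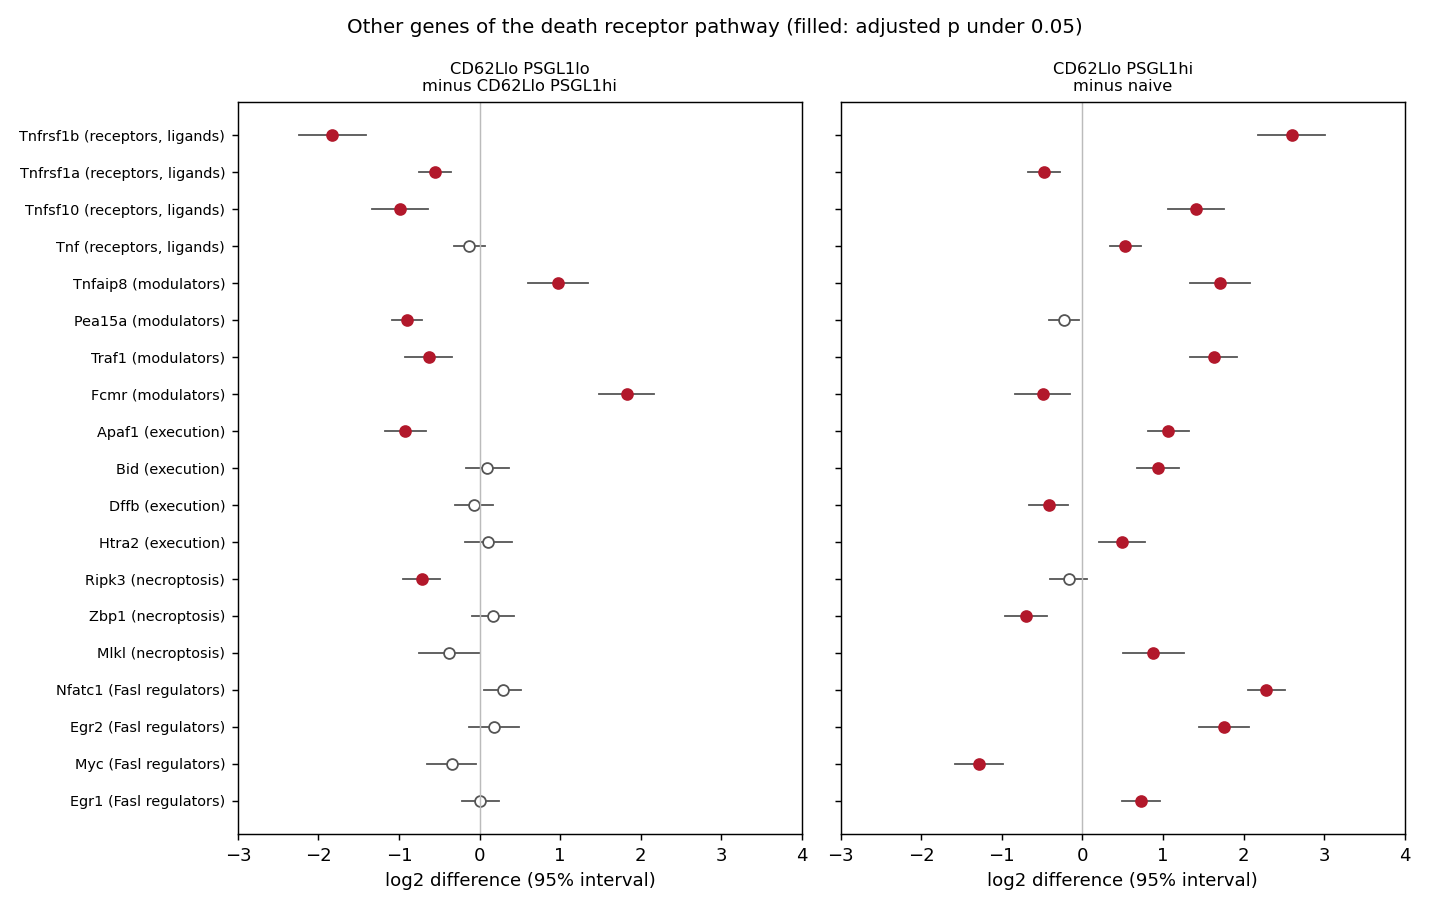
Log2 differences, with 95% intervals from limma over 12 arrays, of the up to 4 genes of each list with the smallest F test p, in CD62Llo PSGL1lo minus CD62Llo PSGL1hi cells and in CD62Llo PSGL1hi minus naive cells; filled points passed an adjusted p under 0.05. Tnfrsf1b, Tnfsf10, Traf1 and Apaf1 lie left of 0 in the first panel and right of 0 in the second, while Nfatc1, Egr2 and Egr1 are filled in the second panel alone.

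The named genes whose log2 ratios were most like those of each member over the 12 arrays give a further description. Because all genes share the same arrays and populations, such correlations mostly reflect which populations are high. Fasl was most like Havcr2, which encodes the inhibitory receptor TIM-3, Chsy1, a chondroitin synthase, Rgs1, a regulator of G protein signals, and Nkg7, a cytotoxic granule protein, with Pearson correlations of 0.997, 0.994, 0.991 and 0.989. Fas was most like Dusp6, a MAP kinase phosphatase, at 0.911, followed by C2cd5, Dennd2d and Fam222b at 0.908, 0.907 and 0.894. Casp8 was most like Klhl22, Ccdc187, Snrpd3 and Kti12, between 0.962 and 0.966. Cflar, by 1449317_at, was most like Gpm6b, Nr3c2, Gsap and Trim2, between 0.969 and 0.973. For Fadd, by 1416888_at, the 4 highest correlations lay between 0.864 and 0.923, with Fam193a, Cep89, Ino80e and Ibtk. Because the Fadd probe sets did not separate the populations, these correlations do not reflect which populations are high. They are the highest picked from all named genes over 12 arrays, and how high such a pick lies without any shared variation was not tested.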

How the data were processed

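RNA of 12 sorted CD4 T cell samples, 3 per population, was measured on Affymetrix arrays. Per the submitters' processing notes the authors used MAS5, and no version, background setting or scaling target is given in the sources used here. The deposited values are linear ratios: tested on the values, 99.7% of probe sets had a median over the 12 arrays within 0.002 of 1. Probe brightness and detection calls were not used here, so precision is limited by the number of arrays and weak probe sets cannot be told from strong ones. Of 45101 probe sets, 64 controls were left out. The platform annotation gives 1 gene symbol for 34945 of the tested probe sets, several for 932, and 9160 are not listed in it.

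The log2 of each ratio, with no pseudocount since no value was 0 or below, was fitted with limma 3.58.1 in R 4.3.3 as 4 population means with empirical Bayes moderation (8 residual and 5.54 prior degrees of freedom). The median standard error of a difference was 0.120. All 6 pairwise differences and an F test were adjusted by Benjamini-Hochberg over all 45037 probe sets. The procedure was also run on simulated data with independent noise on each array. That run does not cover correlation between same-numbered arrays or technical replication. The 6 comparisons share arrays.

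The members and gene lists were chosen with earlier results of these data known. The genes named are all members, up to 4 genes per pathway list with the smallest F test p, and the 4 named genes most correlated with each member's representative probe set; genes named outside this rule (Irf1, Irf2 and the markers of other cells) were chosen after their values were seen. A gene's representative was a probe set without an _x_, _s_ or _a_ suffix where there was one, then one designed on a curated transcript, then the lowest number. Deviations of same-numbered arrays from their population means correlated between 0.138 and 0.451 among the CD44+ populations, each over 0.1, so replicate numbers were taken to pair these arrays; with naive arrays the range was -0.08 to 0.16. Promoter windows are from RefSeq, assembly GRCm38.p6. Alternatives were quantile normalization, centring, array weights, robust moderation, a replicate block, fits on 2 populations, 1 probe set per gene and leaving out each array.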

Additional observations from a re-analysis of the deposited data

How the results depend on the processing

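Of 18 member differences called, 11 passed in every alternative, and 48 were not called. Over 1251 recomputed values of 66 differences, 1151 kept their direction and side of the threshold, 28 lost the call, 31 gained it and 41 changed sign, all of differences that were not called. The calls lost are given beside the results. The count of members called between CD62Llo PSGL1hi and CD62Lhi PSGL1hi cells, 0 as deposited, was 2 after quantile normalization, 1 after centring, and 2 with the replicate block in 12 or in 9 arrays. Between CD62Llo PSGL1lo and CD62Llo PSGL1hi cells it was 4, with 1 on 1 probe set per gene (of 5 genes) and 2 in a fit on these populations alone. The same count was 5 with array weights, and 5 and 6 with the replicate block in 12 and in 9 arrays. Between CD62Llo PSGL1lo and naive cells it was 3, with 2 after quantile normalization and 5 under array weights. Over all probe sets these last settings gave 9044, 6316 and 11610 calls. With the block in 12 arrays the F test called 9, against 6 without it, and CD62Llo PSGL1hi against naive cells 6, as in a fit on these populations alone, against 4. Leaving out 1 array gave 2 to 4 for CD62Llo PSGL1lo against CD62Llo PSGL1hi, 0 to 1 for CD62Llo PSGL1hi against CD62Lhi PSGL1hi, 3 to 4 for CD62Llo PSGL1lo against CD62Lhi PSGL1hi, 1 to 3, 3 to 4 and 2 to 5 for these 3 populations against naive, and 4 to 6 for the F test. Counts over all probe sets are not given here for the fits with 1 array left out. These ranges therefore do not show whether a change is particular to the members.

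The sign changes were as follows, in log2 units. Under quantile normalization they were Casp8 0.042 and Cflar 1453482_at -0.00027 between CD62Llo PSGL1lo and CD62Llo PSGL1hi cells, and Fasl 1449235_at -0.55 between CD62Llo PSGL1lo and naive cells. Under array weights they were Casp8 0.050 and Cflar 1453482_at -0.068 in the first of these comparisons, Fasl 1418803_a_at 0.045 in the second, and Fadd 1416888_at -0.0082 between CD62Llo PSGL1hi and naive cells. After centring, Casp8 was 0.0064 in the first. Leaving out 1 array gave the other 33, within these ranges. Between CD62Llo PSGL1lo and CD62Llo PSGL1hi cells they were -0.019 to 0.13 for Fadd 1416888_at, -0.075 to 0.11 for Casp8 and -0.12 to 0.31 for Cflar 1453482_at. Between CD62Llo PSGL1hi and CD62Lhi PSGL1hi cells they were -0.10 to 0.14 for Fas, -0.017 to 0.10 for Fadd 1416888_at, -0.046 to 0.17 for Fadd 1446499_at and -0.061 to 0.081 for Casp8. Between CD62Llo PSGL1lo and CD62Lhi PSGL1hi cells they were -0.12 to 0.10 for Fadd 1446499_at, -0.063 to 0.13 for Casp8 and -0.19 to 0.063 for Cflar 1425686_at. Against naive cells, CD62Llo PSGL1lo cells had -0.21 to 0.050 for Fasl 1418803_a_at and -0.016 to 0.14 for Fadd 1416888_at, CD62Llo PSGL1hi cells -0.031 to 0.056 for Fadd 1416888_at, and CD62Lhi PSGL1hi cells -0.086 to 0.021 for Fadd 1416888_at, -0.18 to 0.036 for Cflar 1424996_at and -0.18 to 0.023 for Cflar 1425687_at. The causes were not tested.

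Over all probe sets, CD62Llo PSGL1hi against CD62Lhi PSGL1hi cells gave 556 calls, and 893 after quantile normalization, 1016 and 1089 with the replicate block in 12 and in 9 arrays, and 368 in a fit on these populations alone. After centring that comparison gave 605. CD62Llo PSGL1lo against CD62Lhi PSGL1hi cells gave 5242 and, fitted alone, 3274. CD62Llo PSGL1hi against naive cells gave 7772, and 11777 under array weights, 9487 with the block in 12 arrays and 10863 fitted alone. CD62Llo PSGL1lo against CD62Llo PSGL1hi cells gave 3775, and 2861 fitted alone, 4978 under array weights, and 4864 and 4788 with the block in 12 and in 9 arrays. On 1 probe set per gene it gave 1951 of 18193. The F test gave 10696, and 12965 with the block in 12 arrays. Ratios carry no signal over background, so a weak probe set's lack of difference cannot be told from lack of signal.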
